A study of Mus musculus with 5 samples.

Results

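The 9 genes described here encode feedback inhibitors of MAP kinase signalling: the dual-specificity phosphatases Dusp1, Dusp2, Dusp4, Dusp5, Dusp6 and Dusp10, and the adaptor proteins Spry1, Spry2 and Spred1. They were found by matching the RefSeq accession of each array probe to these symbols, which gave 11 probes for the 9 genes, out of 21366 genes measured. Spred1 had 3 probes and the others 1 each, and its brightest probe on average was used. All 9 genes were well above background on all 5 arrays, as judged by the scanner software.

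MAP kinases carry signals from the T cell receptor and from cytokine receptors to the nucleus, and are switched on by phosphorylation of a threonine and a tyrosine. Dual-specificity phosphatases remove both phosphates. Several of their genes, and those of the Sprouty and Spred adaptors that dampen the Ras to ERK step upstream, are themselves induced by ERK activity, so their RNA is known as a readout of recent pathway activity as well as a brake on it. In T cells these genes are known to respond to stimulation through the receptor.

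Gene expression had been measured on 1-colour Agilent arrays in 5 cultures derived from naive splenic CD4 T cells of C57BL/6 mice. Th1reg cells were made in 3 steps of 4 days, 12 days in all: Th1 culture, rest, then the iTreg medium, which held anti-CD3/CD28, IL-2 and TGF-beta with antibodies to IFN-gamma and IL-4. Th1+TGFb cells went from the Th1 culture straight into that medium, for 8 days in all. iTreg cells were naive cells kept in that medium for 4 days. Rested cells were Th1 cells kept for 4 days in IL-2 with antibodies to IFN-gamma and IL-4, and without anti-CD3/CD28, for 8 days in all. Th1 cells were naive cells kept for 4 days with IL-12 and IL-2, an antibody to IL-4 and anti-CD3/CD28. The cultures thus share IL-2 and an antibody to IL-4, and rested is the only culture whose last step lacked receptor stimulation. The groups are bulk cultures of cells that had all been activated in vitro at some point. The labels do not say how many mice were used or whether they were pooled.

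With a single array per culture, no replicate spread and no test could be had. The share of spots well above background ran from 45.7% in Th1 to 48.7% in iTreg. All 7 T cell markers examined, Cd4 among them, were well above background on every array. Foxp3, which marks regulatory T cells, was well above background only in Th1reg and iTreg, at 4.36 and 5.44. Tbx21, which encodes T-bet, stood at 5.10 in Th1reg, 4.92 in Th1+TGFb, 0.77 in iTreg, 4.39 in rested and 6.64 in Th1. These levels, and all those that follow, are scaled log2 signals: log2 of the probe's processed signal minus log2 of that array's 75th percentile, so that 0 marks the 75th percentile of the array. Levels are compared between arrays for 1 probe and never between probes. The ± beside a difference is the error the scanner software gives for the single spot on each array, combined over both arrays. It was 0.20 to 0.27 log2 units for these 9 genes, and it holds nothing of the variation between cultures. In such bulk samples, fewer cells of a type and less RNA per cell cannot be told apart.

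The RefSeq promoter table, on build GRCm38.p6, held 8 of the 9 genes, all but Dusp4. The stretches of 3 phosphatase genes are shown because they carry sites of factors known to act in the response to stimulation. Each runs through the 200 bases before the annotated start, and capitals mark the matches: the short CRE form TGACG, the EGR motif GCGNGGGCG and the CArG box, which serum response factor binds. Dusp5 is at chr19:53528945-53529144 (plus strand), Dusp1 at chr17:26508473-26508672 (minus strand) and Dusp2 at chr2:127335959-127336158 (plus strand).
Dusp5: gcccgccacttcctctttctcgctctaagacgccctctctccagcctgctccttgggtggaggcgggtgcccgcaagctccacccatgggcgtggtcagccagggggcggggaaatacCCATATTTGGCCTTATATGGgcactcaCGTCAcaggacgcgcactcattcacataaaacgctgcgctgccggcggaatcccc
Dusp1: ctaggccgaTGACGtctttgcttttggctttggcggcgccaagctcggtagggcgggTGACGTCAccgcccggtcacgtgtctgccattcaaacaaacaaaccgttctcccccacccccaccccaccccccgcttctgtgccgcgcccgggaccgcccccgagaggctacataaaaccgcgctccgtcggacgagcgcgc
Dusp2: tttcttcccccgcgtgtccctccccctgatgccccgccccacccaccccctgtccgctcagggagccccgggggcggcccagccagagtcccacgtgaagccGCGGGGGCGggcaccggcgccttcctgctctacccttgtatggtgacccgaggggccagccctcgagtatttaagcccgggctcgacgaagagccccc

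Dusp5 has a pair of CArG boxes that touch, at 82 to 73 and 72 to 63 bases before the start, and the short CRE form on the other strand at 55 to 51. Of 32851 promoters of 300 bases in the table (250 before and 50 after the start), 1.63% hold at least 1 CArG box and 6 hold 2 or more. Dusp1 has the full CRE TGACGTCA at 143 to 136 bases before the start, which holds the short form on each strand, and a further short form at 191 to 187. The full CRE is in 1.79% of promoters and the short form in 20.8%. The EGR motif of Dusp2, at 98 to 90 bases before the start, is in 5.55% of promoters. Both strands were searched. None of the 8 promoters held the letters of the AP-1 motif TGANTCA, the ETS motif CCGGAAGT, the SMAD motif GTCTAGAC or TATAAA, which are in 7.81%, 3.89%, 0.213% and 13.6% of promoters. A match describes the letters only.

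Among the inducible phosphatases of the nucleus, Dusp4 varied most across the cultures. Its level was 4.93 in Th1reg, 3.36 in Th1+TGFb, 2.34 in iTreg, -2.01 in rested and 4.61 in Th1. The rested array stood 4.34 ± 0.27 log2 units below the next lowest, iTreg, while Th1reg and Th1 differed by 0.33 ± 0.20, which is within 2 errors. Dusp4, whose product acts on ERK and JNK, was 97.8-fold lower in rested than in Th1, 123-fold higher in Th1reg than in rested and 41.2-fold higher in Th1+TGFb than in rested. Its rested signal was 32.0 intensity units, where the dimmest probe to pass as well above background had 16.3, so these folds are imprecise.

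Dusp2, an ERK and p38 phosphatase found mainly in lymphoid cells, had levels of 7.38 in Th1reg, 7.23 in Th1+TGFb, 6.47 in iTreg, 5.92 in rested and 7.25 in Th1. It was lowest in rested, 2.50-fold below Th1, and the 3 cultures at the top lay within 2 errors of their neighbours. Dusp5, which acts on ERK alone, stood at -0.11 in Th1reg, 0.88 in Th1+TGFb, -2.10 in iTreg, -1.49 in rested and 0.74 in Th1. It was the only 1 of the 9 that was lowest in iTreg, 0.61 ± 0.28 log2 units below rested. The 2 low arrays were thus the culture without stimulation and the stimulated culture that had never been Th1, and Dusp5 was 7.12-fold lower in iTreg than in Th1. The Dusp5 signals of those arrays were 45.7 (rested) and 55.6 (iTreg) intensity units, which is dim. Their order depended on the scaling: with spike-in scaling rested, not iTreg, was lowest for Dusp5. With quantile normalization Dusp1 and Dusp10 were lowest in iTreg as well, and with normexp background correction Dusp10 was.

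Dusp1 is an immediate-early phosphatase of p38, JNK and ERK. Its levels were -0.43 in Th1reg, -0.25 in Th1+TGFb, -0.36 in iTreg, 0.10 in rested and 0.73 in Th1, the smallest range of the 9 genes (1.16 log2 units). Th1 stood 0.64 ± 0.21 above rested. Each further step was within 2 errors, although Th1reg was 0.53 ± 0.21 below rested. Rested cells were therefore not low for Dusp1 at the scale used here.

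Dusp6, the cytoplasmic phosphatase that acts on ERK, had levels of 4.57 in Th1reg, 3.70 in Th1+TGFb, 3.15 in iTreg, 2.17 in rested and 3.97 in Th1. It was 5.30-fold higher in Th1reg than in rested, 2.89-fold higher in Th1+TGFb than in rested and 3.48-fold lower in rested than in Th1. Th1reg was above Th1 by 0.61 ± 0.20 log2 units, beyond 2 errors, while Th1 and Th1+TGFb differed by 0.27 ± 0.20. Dusp10, which acts on p38 and JNK rather than ERK, ran the other way: -1.75 in Th1reg, -1.42 in Th1+TGFb, -1.64 in iTreg, -0.22 in rested and -1.93 in Th1. Rested stood 1.20 ± 0.23 above the next array, and neighbours among the 4 stimulated cultures were within 2 errors. The Dusp10 signals were dim, from 54.0 intensity units in Th1 to 109.9 in rested. With spike-in scaling iTreg, not rested, was highest for Dusp10.

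**Figure D1:**
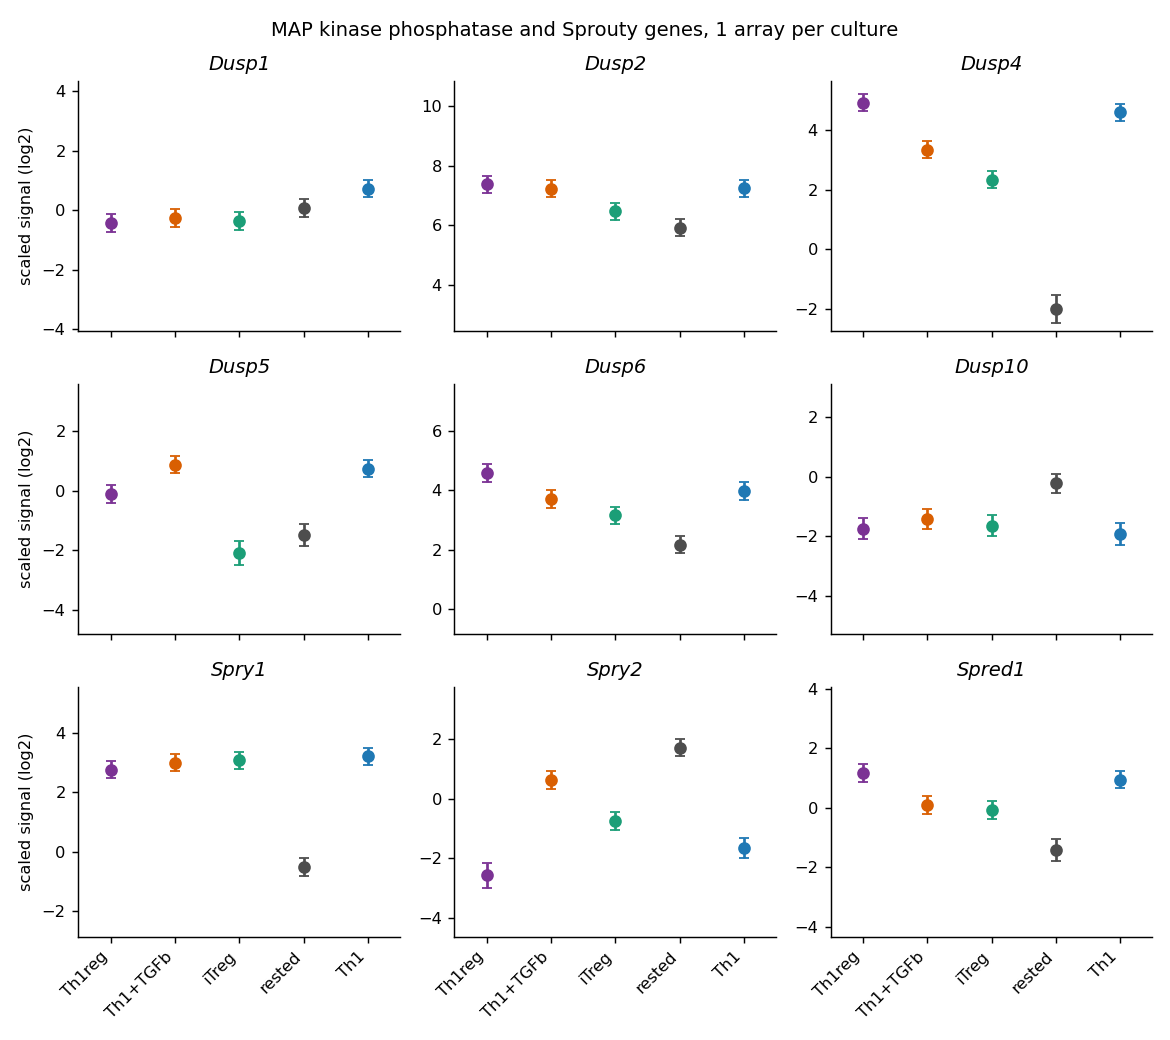
Scaled log2 signal of each of the 9 genes (y axis, each panel spanning the same number of log2 units) in the 5 cultures (x axis), 1 array per culture. Bars are 2 errors of the scanner software on each side. Dusp4 (-2.01) and Spry1 (-0.52) are far lower in rested than in any other culture, and Spry2 (1.71) and Dusp10 (-0.22) are highest there.

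The Sprouty genes differed in opposite directions. Spry1 had levels of 2.75 in Th1reg, 3.0 in Th1+TGFb, 3.07 in iTreg, -0.52 in rested and 3.22 in Th1. Neighbours among the 4 stimulated cultures were 0.08 to 0.24 log2 units apart, within 2 errors, although Th1reg and Th1, at the ends, were further apart than that. Rested stood 3.27 ± 0.21 below the lowest of them. Spry1 was 13.3-fold lower in rested than in Th1.

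Spry2 had levels of -2.58 in Th1reg, 0.63 in Th1+TGFb, -0.74 in iTreg, 1.71 in rested and -1.66 in Th1. Each step of that order was beyond 2 errors, with rested at the top and Th1reg at the bottom, although both came from the same Th1 culture. Spry2 was 19.6-fold lower in Th1reg than in rested, and 10.3-fold higher in rested than in Th1. The change of Spry2 minus that of Spry1 was 7.10 log2 units in rested versus Th1 and -7.56 in Th1reg versus rested. That contrast is taken within each array, so no scaling between arrays enters it. The Th1reg and Th1 signals of Spry2 were 43.3 and 65.1 intensity units, which is dim.

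The summed signals of B cell and of myeloid markers had the same order of arrays as Spry2, with rested highest as for Dusp10. Single markers did not all keep that order. Cd79b was highest in iTreg (-0.06, against -0.57 in rested) and Cd14 in Th1+TGFb (-1.68, against -2.27 in rested). The summed scaled signal of 7 B cell markers was 1.31 in Th1reg, 3.52 in Th1+TGFb, 3.0 in iTreg, 6.41 in rested and 1.55 in Th1, with 3 or 4 of the 7 well above background per array. That of 8 myeloid markers was 288 in Th1reg, 837 in Th1+TGFb, 587 in iTreg, 1303 in rested and 407 in Th1, with 3 to 5 of 8 well above background and nearly all of it from Itgam and Siglech. Of their defining genes, Cd79a, Pax5, Lyz2, S100a8 and S100a9 stayed below that mark in every culture. Cd22, Cr2 and Csf1r were above it on all 5 arrays, Ms4a1 on 4, and Cd79b and Cd14 on 3. In rested against Th1, Cd79b was at least 7.27-fold, Cr2 4.61-fold, Cd22 3.86-fold and Ms4a1 3.73-fold higher. Markers of CD8 T and NK cells summed to 0.76 in Th1reg, 2.16 in Th1+TGFb, 1.84 in iTreg, 1.63 in rested and 0.98 in Th1, another order. Ncr1 and Klrb1c were below that mark throughout, and Cd8b1 and Eomes above it on all 5 arrays. Cd8a was above it in iTreg alone, at least 10.1-fold higher than in Th1 and at least 9.68-fold higher than in Th1reg. Among 3 erythroid markers, Hba-a1 was well above background in iTreg and none was elsewhere. The part of such cells in the Spry2 and Dusp10 values was not tested.

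Spred1, which holds neurofibromin at the membrane and so restrains Ras, had levels of 1.17 in Th1reg, 0.09 in Th1+TGFb, -0.07 in iTreg, -1.42 in rested and 0.95 in Th1. It was lowest in rested, 5.17-fold below Th1, and 6.02-fold higher in Th1reg than in rested, where its signal was a dim 48.0 intensity units. A second Spred1 probe was well above background on all arrays but rested, where its signal was at least 9.09-fold lower than in Th1. By that probe Th1reg, against rested, was at least 3.42 log2 units higher. It also put Spred1 2.97-fold higher in Th1reg than in Th1+TGFb and 3.23-fold higher than in iTreg, against 2.11-fold and 2.37-fold by the first probe. The remaining probe was well above background in Th1reg alone, at a signal of 28.2.

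Rested cells were set against the Th1 cells they came from, a comparison in which the end of stimulation cannot be told apart from the loss of IL-12, the added antibody to IFN-gamma and 4 more days of culture. Of the 9 genes, 6 were at least 2-fold lower in rested (Dusp2, Dusp4, Dusp5, Dusp6, Spry1 and Spred1), 2 were at least 2-fold higher (Dusp10 and Spry2), and Dusp1 differed by -0.64 ± 0.21 log2 units. Over all 13227 genes with a value in this comparison, 28.1% were at least 2-fold lower and 16.7% at least 2-fold higher. The share of lower genes among the 9 was thus above the background and that of higher genes near it. The median difference was -1.80 for the 9 genes and -0.33 for all genes. Dusp4 lay at the 0.144th percentile of all differences, Spry1 at the 1.5th and Spry2 at the 99.4th.

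Th1+TGFb and rested cells both followed the Th1 culture, for the same number of days, and differed by anti-CD3/CD28 and TGF-beta. The same 6 genes were at least 2-fold higher in Th1+TGFb and the same 2 were lower, where 18.1% of all 13125 genes were higher and 8.3% lower. Spry1 was 11.4-fold and Dusp5 5.15-fold higher. Spry2 was 2.11-fold lower, near the 2-fold limit, as was Dusp10 at 2.29-fold. Th1reg against rested, its direct precursor, again had those 6 higher and those 2 lower, against 29.4% and 18.5% of 13329 genes. With the 75th percentile of detected probes only 4 were higher, Dusp5 (0.80 log2 units) and Dusp2 (0.87) dropping out, and 3 were lower, with Dusp1 at -1.11. Normexp background correction also put Dusp5 under 2-fold, at 0.75. The median of the 9 genes was 1.51 in Th1+TGFb versus rested and 1.46 in Th1reg versus rested, beside 0.14 and 0.35 for all genes. These 3 comparisons share the single rested array, so they are not separate evidence of its low or high values.

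The 4 stimulated cultures held fewer 2-fold differences of the 9 genes. In Th1+TGFb versus Th1, Spry2 was 4.89-fold higher and Dusp4 2.37-fold lower, and the other 7 genes were under 2-fold apart. That is 1 of 9 each way, close to the 11.1% of all genes that were higher and the 8.13% that were lower. Dusp1 lay just inside the limit at -0.98 ± 0.21 log2 units. Spred1 did too, at -0.86 ± 0.21, but its second probe was past the limit, 2.52-fold lower. The median of the 9 genes was -0.22, as for all genes.

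The iTreg and Th1 cultures had the same 4 days of stimulation under different cytokines, and only the iTreg medium held an antibody to IFN-gamma. In iTreg versus Th1 none of the 9 genes was at least 2-fold higher, where 10.3% of all genes were. Lower were 4 of them, where 18.6% of all genes were. Dusp5 was 7.12-fold and Dusp4 4.81-fold lower in iTreg. Dusp1 and Spred1 lay at the limit, 2.13-fold and 2.03-fold lower. All 7 T cell markers were lower in iTreg as well, 5 of them by at least 2-fold, from Cd4 (2.44-fold) to Cd3d (2.86-fold), and their summed scaled signal was 924 in iTreg and 2070 in Th1. The values of Dusp1 and Spred1 were no larger than those of these 5 markers, but larger than those of Lck (1.65-fold) and Cd3e (1.74-fold). The part of the T cell markers in the result was not tested. Spry1 differed by -0.14 ± 0.20 log2 units, and Spry2 by 0.91 ± 0.23.

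Th1reg and Th1+TGFb ended in the same medium with and without a rest before it. Dusp4 was 2.98-fold and Spred1 2.11-fold higher in Th1reg, and Spry2 was 9.28-fold lower. These 2 higher and 1 lower of 9 compare with 13.5% and 14.1% of all genes, which is near the background. Dusp5 stood just under the limit at -0.99 ± 0.21 and Dusp6 at 0.88 ± 0.20, and Spry1 and Dusp2 differed by -0.24 ± 0.20 and 0.15 ± 0.20.

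In Th1reg versus iTreg, 4 of the 9 genes were at least 2-fold higher, where 17.5% of all genes were. They were Dusp4 (6.04-fold), Dusp5 (3.96-fold), Dusp6 (2.68-fold) and Spred1 (2.37-fold). Spry2 was 3.58-fold lower, 1 of 9 against 11.1% of all genes. Dusp1, Dusp10 and Spry1 differed by -0.07 ± 0.21, -0.10 ± 0.25 and -0.32 ± 0.20. Dusp2 stood under the limit at 0.91 ± 0.20. The T cell markers named above were also higher in Th1reg than in iTreg, 4 of 7 by at least 2-fold, from Cd2 (2.04-fold) to Cd3g (2.81-fold). Their part in these values was not tested.

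**Figure D2:**
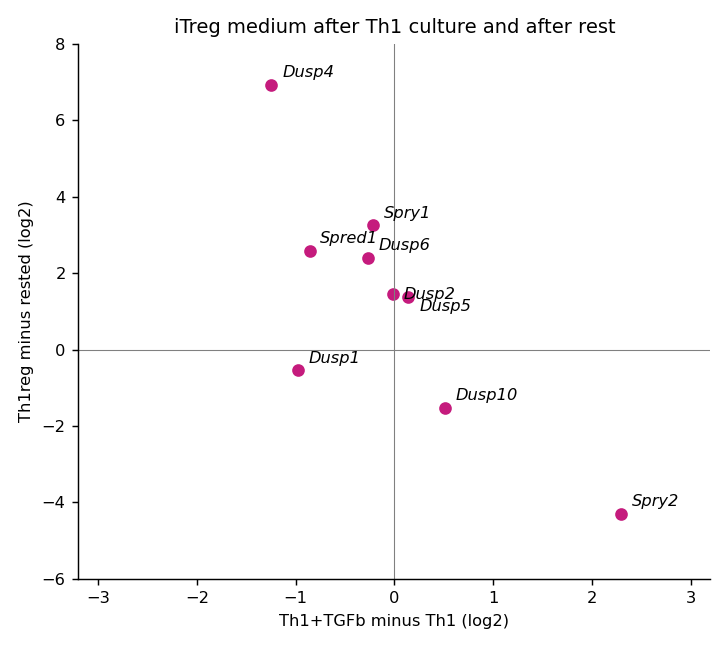
Log2 difference after the iTreg medium for each of the 9 genes, with the start in rested cells on the y axis (Th1reg minus rested) and the start in Th1 cells on the x axis (Th1+TGFb minus Th1), 1 point per gene. The axes share no array. Dusp4 lies at 6.94 and -1.25, and Spry2 at -4.29 and 2.29, in opposite corners.

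The difference from the starting culture to the iTreg medium was not the same for the 2 starts. Dusp4 was higher by 6.94 log2 units in Th1reg than in rested and lower by 1.25 in Th1+TGFb than in Th1. Spry2 went the other way, with -4.29 and 2.29. Spry1, Dusp6 and Dusp2 were higher from rest (3.27, 2.41 and 1.46) and differed by -0.22, -0.27 and -0.02 from Th1. After the medium, Spry1 and Dusp2 were within 2 errors between Th1reg and Th1+TGFb, and it was their starting levels that lay apart. Whether the response depended on the start was not tested, since each culture had 1 array.

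Across all 5 arrays, rested was lowest for 5 of the 9 genes and highest for 2. Among the 10715 genes well above background on every array, rested was lowest for 39.8% and highest for 19.99%. Th1reg was highest for 4 of the 9 genes (Dusp2, Dusp4, Dusp6 and Spred1), against 34.1% of those genes. The range from the lowest to the highest array had a median of 2.59 log2 units for the 9 genes and 1.32 for the 10715.

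Other phosphatase genes went both ways in the comparisons with rested. The 2 other adaptor genes that could be measured were lower in rested than in Th1. Of 13 other dual-specificity phosphatase genes, 10 had a value in rested versus Th1, with a median of 0.15. Of these, 4 were at least 2-fold lower and 3 higher, against 28.1% and 16.7% of all genes. Among the stimulated cultures, those at least 2-fold apart lay to a single side in each comparison. In Th1reg versus iTreg 5 of 12 were higher and none lower, against 17.5% and 11.1% of all genes. In iTreg versus Th1 2 of 10 were lower (18.6% of all genes), and in Th1+TGFb versus Th1 2 of 9 were higher (11.1%). In Th1reg versus Th1+TGFb 1 of 11 was higher (13.5%). Dusp16, a JNK phosphatase, was 9.14-fold lower in rested than in Th1, and Dusp14, an atypical phosphatase that restrains T cell receptor signalling, was 4.93-fold lower. Dusp14 was 22.8-fold higher in Th1reg than in rested and 7.83-fold higher in Th1reg than in iTreg. Dusp7, an ERK phosphatase, was 3.03-fold lower in Th1reg than in rested. Spry3 and Spry4 were below the background mark in every culture. Spred2 was 2.59-fold lower in rested than in Th1, and Spred3 at least 2.96-fold lower.

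Among genes known to be induced by ERK activity, those at least 2-fold apart lay to a single side in the comparisons with rested and in Th1reg versus iTreg. They lay to both sides in the other 3. Under 2-fold, Fosl2 was 1.52-fold lower in Th1reg than in rested. Of 15 with a value, 12 were at least 2-fold lower in rested than in Th1 and none was higher (median -2.57), against 28.1% and 16.7% of all genes. Among 14, 12 were higher in Th1+TGFb than in rested (median 1.82), and among 16, 12 were higher in Th1reg than in rested (median 2.14), with none lower in either. Of all genes, 18.1% and 29.4% were higher in these comparisons, and 8.3% and 18.5% lower. Nr4a1, an orphan nuclear receptor gene of the early response, was 160-fold lower in rested than in Th1, and Egr2 37.5-fold. In Th1reg versus iTreg 8 of 16 were higher and none lower (median 1.15), against 17.5% and 11.1% of all genes. Among the higher were Etv4 (13.7-fold) and Etv5 (8.73-fold), ETS factors of the ERK response. In Th1reg versus Th1+TGFb 3 of 16 were higher and 2 lower, against 13.5% and 14.1% of all genes. Etv4 was 11.2-fold and Etv5 3.16-fold higher, and Ier3 was 3.72-fold and Fosl2 2.73-fold lower. In Th1+TGFb versus Th1 2 of 15 were higher and 5 lower, against 11.1% and 8.13% of all genes, with Etv4 5.82-fold and Etv5 8.03-fold lower. In iTreg versus Th1 1 of 15 was higher and 8 were lower, against 10.3% and 18.6% of all genes. Fosl2 was among the lower (33.7-fold). The list and its members were chosen with earlier results of these data known.

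Genes of the kinase cascades differed in both directions in rested versus Th1. Of 22 Ras and ERK cascade genes, 4 were at least 2-fold lower and 2 higher in rested than in Th1 (median -0.48). Of all genes, 28.1% were lower and 16.7% higher, so neither count was above the background. Rasa3, which switches Ras and Rap off, was 15.0-fold higher in rested than in Th1 and 7.55-fold lower in Th1reg than in rested, and Hras was 3.44-fold lower in rested than in Th1. In Th1reg versus Th1+TGFb none of the 22 was at least 2-fold apart, where 13.5% of all genes were higher and 14.1% lower. Of 17 p38 and JNK cascade genes, 8 were lower and 2 higher in rested than in Th1 (median -0.99), against 28.1% and 16.7% of all genes. The share of lower genes in this list was thus above the background, as for the 9 genes. In Th1reg versus Th1+TGFb 3 of these 17 were lower and none higher, where 14.1% and 13.5% of all genes were. Gadd45g, an activator of the p38 branch, was 25.5-fold lower in rested than in Th1 and 34.5-fold lower in iTreg than in Th1.

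**Figure D3:**
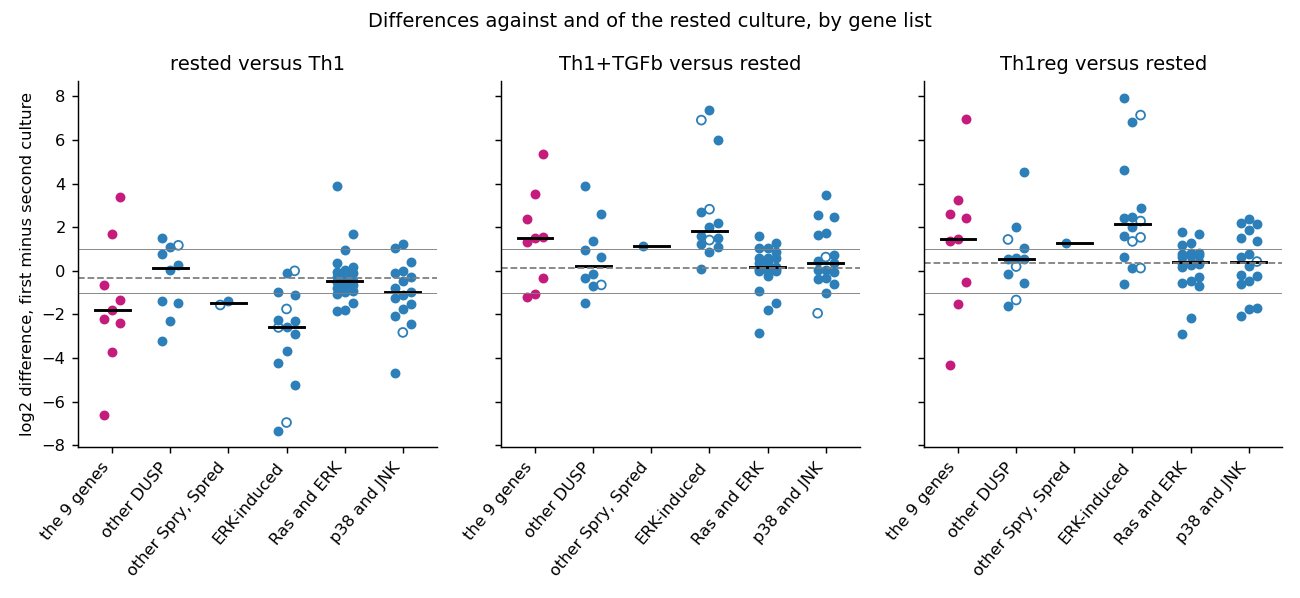
Log2 difference of each gene (points) in 3 comparisons that use the rested array, by gene list on the x axis. Open points are bounds, black bars are list medians, the dashed line is the median of all genes and thin lines mark 2-fold. The 9 genes and the ERK-induced genes lie mostly below 0 in rested versus Th1 (medians -1.80 and -2.57) and mostly above 0 in the other panels.

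Over 5 arrays, the genes with the closest pattern were found by the root mean square distance between scaled log2 profiles, each centred on its own mean, among 10282 other genes well above background on all arrays. The arrays are shared by all genes, and 5 points allow many close matches by their number alone. A gene's own root mean square distance from its mean ran from 0.43 log2 units for Dusp1 to 2.50 for Dusp4. The distances are therefore not comparable between the 9 genes. Nearest to Dusp4 were Hbegf (0.50 log2 units) and Pdcd1lg2 (0.58), and nearest to Dusp5 were Il21r (0.12) and P3h3 (0.22). Spry1 was closest to Vegfa (0.28) and Atp6v0a1 (0.32), and Spry2 to Clstn3 (0.15) and Rap1gap2 (0.17). Dusp6 had Fam136a among its 2 nearest (0.09). Dusp2 was closest to Tnfrsf22 (0.02) and Stx12 (0.05), Spred1 to Pradc1 (0.06) and Mrpl17 (0.07), Dusp10 to Thap3 (0.04) and Ap3m2 (0.07), and Dusp1 to Rbm5 and Sik3 (both 0.07). None of the 9 genes was among the 2 nearest of another.

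The scale between arrays bears on each of these values. When 7 spike-in probes set the scale, the all-gene median shifted by -1.12 log2 units in rested versus Th1, by 1.40 in Th1reg versus rested and by 0.78 in Th1+TGFb versus rested. With the 75th percentile taken over probes detected on all arrays, these medians moved by 0.51, -0.49 and -0.30. Of all genes at least 2-fold apart, 37.2% were higher in rested versus Th1, against 65.5% with detected probes and 6.4% with spike-ins. In Th1reg versus rested that share was 61.4%, against 36.4% and 93.1%, and in Th1+TGFb versus rested 68.6%, against 44.4% and 95.5%. It was 57.8% in Th1+TGFb versus Th1, against 78.5% and 25.4%, and 35.7% in iTreg versus Th1, against 64.5% and 58.8%. In Th1reg versus Th1+TGFb it was 48.9%, against 28.0% and 84.0%, and in Th1reg versus iTreg 61.1%, against 31.5% and 57.7%.

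The 6 genes low in rested and Spry2, high there, kept their direction against Th1 under all 7 alternatives. The deposited table holds nearly the same values and the floor touched none of the 9 genes, so those alternatives could hardly turn a sign. The mean over probes could change Spred1 alone. Dusp4 ran from -7.73 to -5.23 log2 units, Spry1 from -4.85 to -3.09, Spred1 from -3.49 to -1.69, Dusp5 from -3.34 to -1.41, Dusp6 from -2.92 to -1.22 and Spry2 from 2.25 to 3.95. Each of these stayed past 2-fold. Dusp2 ran from -2.44 to -0.53 and Dusp10 from 0.59 to 2.28, so that their 2-fold calls depended on the processing. With spike-ins rested was lowest for 7 of the 9 genes, Dusp1 and Dusp5 added, where it was lowest for 80.9% of the 10715 genes. The sign of Dusp1 against rested also turned with spike-ins, to 0.44 in Th1+TGFb and 0.87 in Th1reg. Spry2 was highest in rested under every alternative.

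**Figure D4:**
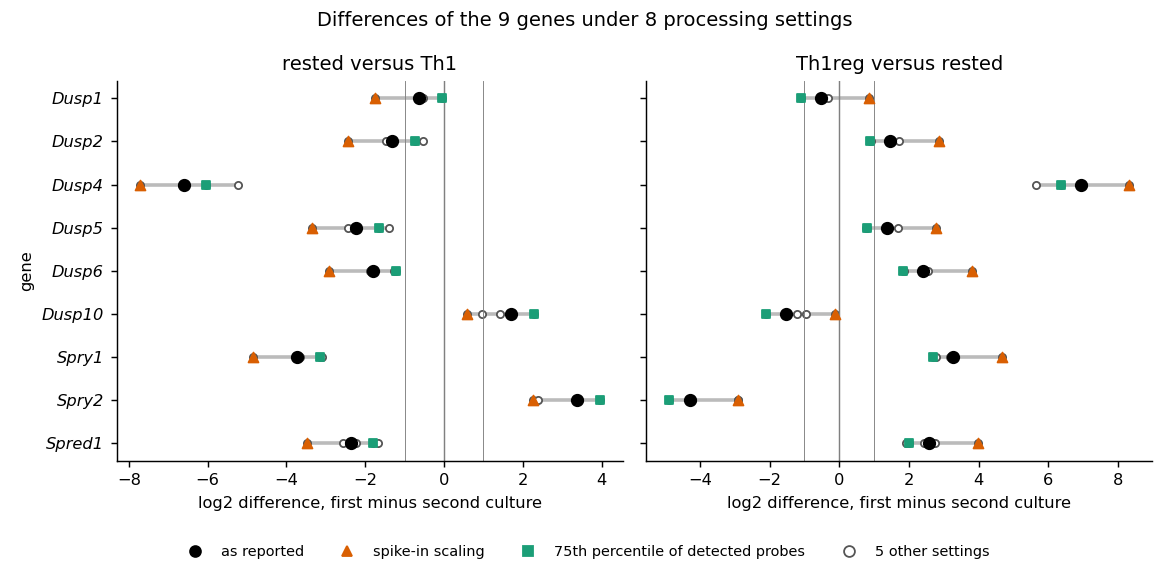
Log2 difference (x axis) of each of the 9 genes (y axis) in rested versus Th1 and in Th1reg versus rested under 8 processing settings, with the reported value as a black point, spike-in scaling as a triangle, the percentile of detected probes as a square, the other settings as open points and a grey bar over the range. Thin lines mark 2-fold. Dusp4, Spry1 and Spry2 stay outside those lines on both sides, while Dusp1, Dusp2 and Dusp10 cross a line in both panels and Dusp5 in Th1reg versus rested.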

How the data were processed

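The authors deposited 1 scanner table per culture. Per the file headers, the arrays were read with Agilent Feature Extraction 10.7.1.1, the version in the submitters' processing notes. The deposited processed signal is an intensity with background subtracted and trends across the array removed, and arrays are not scaled to each other. A second deposited table, of the whole series, is also an intensity: set against the scanner values, 99.7% to 99.8% of probes per column lay within 0.01 log2 units of 1 constant, so its scale and direction are known and it is not centred per gene. Its column medians were 0.0693 (Th1reg), 0.103 (Th1+TGFb), 0.0925 (iTreg), 0.123 (rested) and 0.0762 (Th1). It served as an alternative. All 5 arrays lay on 1 slide with 1 scan time.

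Control spots and the 109 to 142 outlier spots per array were left out, and no spot was saturated. Spots of a probe were averaged. Of 55681 probes, 28331 matched a gene of the RefSeq table, 21366 genes in all. That table is on GRCm38.p6 and gave the probes their gene names only, since the array design names mm9. The promoter stretches and their positions are on GRCm38.p6 as well. Each array's values were divided by its 75th percentile, which was 259 (Th1reg), 173 (Th1+TGFb), 238 (iTreg), 128 (rested) and 206 (Th1) intensity units. A probe not well above background was raised to the dimmest signal that passed on its array, where its own was under that, and such a difference is written as at least N-fold. Genes dim on both arrays of a comparison have no value in it. Repeat spots on an array had a median SD of 0.0558 to 0.0733 log2 units. The number of arrays limits the precision.

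The 9 genes and the gene lists were chosen with earlier results of these data known. The text names all 9, and of each list some of the 3 genes furthest apart in a comparison, with genes not above background and the second Spred1 probe added after their values were seen. Etv4, Etv5, Fosl2 and the cell markers are also given where they were not among those 3. The 2 nearest genes by pattern leave out predicted genes, and some genes are not reported here. Alternatives were other scalings, background correction with limma 3.58.1 (normexp, offset 50, on median spot signals, since mean signals are not in these files), the deposited table, no floor, and the mean over a gene's probes. The script that makes the 2-fold calls was tested on simulated data for errors of computation, which says nothing of variation between cultures. Python 3.11.15 was used.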

Additional observations from a re-analysis of the deposited data

Results flagged for a closer look

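The differences of Dusp4 and of Spry2 after the iTreg medium had opposite signs for the rested and the Th1 start, with 1 array for each culture. Dusp4 had a log2 difference of 6.94 in Th1reg versus rested and of -1.25 in Th1+TGFb versus Th1. Spry2 had -4.29 in Th1reg versus rested and 2.29 in Th1+TGFb versus Th1. The difference between the starting points was not tested. With the 75th percentile of detected probes the Dusp4 value in Th1+TGFb versus Th1 was -0.99, and with quantile normalization -0.93, both under 2-fold. The Spry2 values stayed past 2-fold under all 7 alternatives, from -4.88 to -2.90 and from 1.52 to 2.55. The deposited table, the setting with no floor and the mean over probes could hardly change them.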

How the results depend on the processing

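Of the 63 differences of the 9 genes, 38 were at least 2-fold. All 38 kept their sign under each of the 7 alternatives, and 22 stayed past 2-fold under each. Not all alternatives could have changed these differences. The deposited table holds nearly the same values, the floor touched none of the 9 genes, and the mean over probes could change Spred1 alone. The deposited table and the setting with no floor left every count of the 9 genes as reported, which for these reasons says little. With detected probes, Th1+TGFb versus Th1 had 0 lower in place of 1, iTreg versus Th1 had 1 higher in place of 0 and 2 lower in place of 4, and Th1reg versus Th1+TGFb had 1 higher in place of 2 and 2 lower in place of 1. With spike-ins, rested versus Th1 had 1 higher in place of 2, Th1+TGFb versus rested 0 lower and Th1reg versus rested 1 lower in place of 2 each, Th1+TGFb versus Th1 3 lower in place of 1, and iTreg versus Th1 1 higher and 2 lower in place of 0 and 4. Quantile normalization gave 0 lower in Th1+TGFb versus Th1 and 1 higher in Th1reg versus Th1+TGFb. Normexp gave 1 higher in rested versus Th1, 0 lower in Th1+TGFb versus rested, 1 lower in Th1reg versus rested, 2 lower in iTreg versus Th1, 1 higher in Th1reg versus Th1+TGFb and 0 lower in Th1reg versus iTreg. The mean over probes gave 2 lower in Th1+TGFb versus Th1, Spred1 being added. Smaller moves in the same counts were 5 in place of 6 lower in rested versus Th1 (detected probes, quantile) or 7 (spike-ins), 5 in place of 6 higher in Th1+TGFb versus rested (detected probes, quantile, normexp), 4 (detected probes) or 5 (quantile, normexp) in place of 6 higher and 3 in place of 2 lower (detected probes) in Th1reg versus rested, 3 in place of 4 lower in iTreg versus Th1 (quantile), 3 in place of 2 higher in Th1reg versus Th1+TGFb (spike-ins) and 3 in place of 4 higher in Th1reg versus iTreg (detected probes, quantile). The cause was not tested.

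Counts over all genes moved more. Those higher were 2203 in rested versus Th1 (594 to 3762 over the alternatives), 2377 in Th1+TGFb versus rested (1627 to 6056), 3923 in Th1reg versus rested (2121 to 9520), 1455 in Th1+TGFb versus Th1 (586 to 2593), 1357 in iTreg versus Th1 (622 to 2427), 1782 in Th1reg versus Th1+TGFb (955 to 5463) and 2307 in Th1reg versus iTreg (1099 to 3010). Those lower were 3719 (1922 to 8636), 1090 (284 to 2057), 2468 (703 to 4189), 1062 (538 to 2678), 2444 (1337 to 3262), 1862 (1037 to 3244) and 1467 (639 to 2553) in the same order. No paired analysis was possible because each culture had 1 array.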
